A study of Mus musculus with 8 samples.

Results

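The genes described here encode proteins of the hepatocyte lipid droplet and of lipolysis, the stepwise release of fatty acids from stored fat. The 10 genes were chosen by name (Plin2, Plin3, Plin5, Cideb, Hsd17b13, Fitm2, Pnpla2, Abhd5, G0s2 and Mgll) and matched by Ensembl identifier. Of these, 9 have a row in both deposited tables, a larger one of 23634 genes and a smaller one of 21201. All 9 passed the authors' filter on low means, as did 14180 and 11661 genes in all. G0s2 was not analysed here for expression. The study sequenced RNA from livers of Cpeb4 knockout (KO) and wild-type (WT) mice, as 4 groups of 2 libraries, namely KO and WT purified endoplasmic reticulum (ER) and KO and WT whole liver. No treatment is labelled, the ER came from mice fasted overnight, and the labels used here give neither the strain, age or sex nor the way the knockout was made, nor whether libraries of a group come from separate animals. Each table holds 1 genotype comparison over 4 libraries and does not name its preparation, so the tables are called larger and smaller, and neither is assigned to ER or whole liver.

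Hepatocytes store triglyceride in droplets that bud from the ER, and FITM2 is an ER protein needed for that budding. Perilipins coat the droplet surface and control the access of lipases, and CIDEB is a droplet and ER protein that acts in droplet enlargement and in the lipidation of very low density lipoprotein. ATGL (gene Pnpla2) removes the first fatty acid from triglyceride, with CGI-58 (Abhd5) as its coactivator and G0S2 as its inhibitor, and monoacylglycerol lipase (Mgll) removes the last. CPEB4 is an RNA-binding protein that recognises U-rich cytoplasmic polyadenylation elements in 3' untranslated regions (UTRs) and acts on poly(A) tail length and translation, steps that a transcript level does not measure.

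Whole read counts for each library were recovered from the deposited means, as 1 combination for each of the 9 genes in each table. Libraries could be placed by genotype, through the direction of genes with a single read, but not matched to a labelled sample, so each is called the deeper or the shallower library of its genotype. The relative depths were 1.24 and 0.904 for the KO and 1.26 and 0.717 for the WT libraries of the larger table, and 1.64 and 0.839 for KO and 0.870 and 0.839 for WT in the smaller table. Cpeb4 sets the scale of a large difference. Divided by the authors' size factors, its counts were 506 and 580 in the KO libraries, against 1511 and 1657 in the WT libraries of the larger table. The smaller table gave 193 and 225 in the KO libraries, against 689 and 634 in the WT libraries. The ratio of the KO mean to the WT mean was 0.343 in the larger and 0.316 in the smaller table. The tables do not write which genotype is on top of the fold change. It was read from Cpeb4, which is negative in both, so these values are no independent check of the labels.

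Cytoplasmic polyadenylation elements, taken as TTTTAT or TTTTAAT on the transcript strand, were searched in the annotated 3' UTR of each gene, because they are the letters that the deleted protein is known to bind. Elements were found in 5 of the 10 genes, with 3 in Plin3, 3 in G0s2, 3 in Abhd5, 1 in Hsd17b13 and 4 in Fitm2, of which 3 were of the longer form. Only 1 annotated coding transcript of each gene was searched, although Plin2 has 8 transcripts, Pnpla2 7 and Mgll 10. In those searched, the 3' UTRs of Plin2, Plin5, Cideb, Pnpla2 and Mgll held none of these letters. That of Mgll is 2584 bases long, and those of the other 4 genes are 386 to 468 bases long. Among tested genes with an annotated 3' UTR, 60.3% (larger table) and 59.9% (smaller table) held at least 1 element, a share near the 5 of 10 found here. In the last 300 bases, Plin3 had 1 element and G0s2 had 3. Of the tested genes whose annotated 3' UTR spans that window, 9558 (larger table) and 8434 (smaller table), 37.4% and 37.6% had an element in it. One site of each gene is printed below with 30 bases of the GENCODE M21 transcript (GRCm38, the assembly that mm10 names), 5′ to 3′ on the transcript strand, with the element in capitals.
Plin3, chr17:56277677-56277706, minus strand: ttcacaatttagTTTTATcagttttaaaac
G0s2, chr1:193272212-193272241, minus strand: ttatacagttatTTTTATtgttattattat
Abhd5, chr9:122380582-122380611, plus strand: acttgtggttatTTTTATtgaatattatgt
Hsd17b13, chr5:103955913-103955942, minus strand: ataagggctgatTTTTATtttttttaacat
Fitm2, chr2:163467617-163467646, minus strand: ctttctttttcTTTTAATtttagtattttt
These elements begin 219 bases from the annotated transcript end in Plin3, 69 in G0s2, 931 in Abhd5, 491 in Hsd17b13 and 1257 in Fitm2. A match of letters is a description and not evidence of binding.

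**Figure D1:**
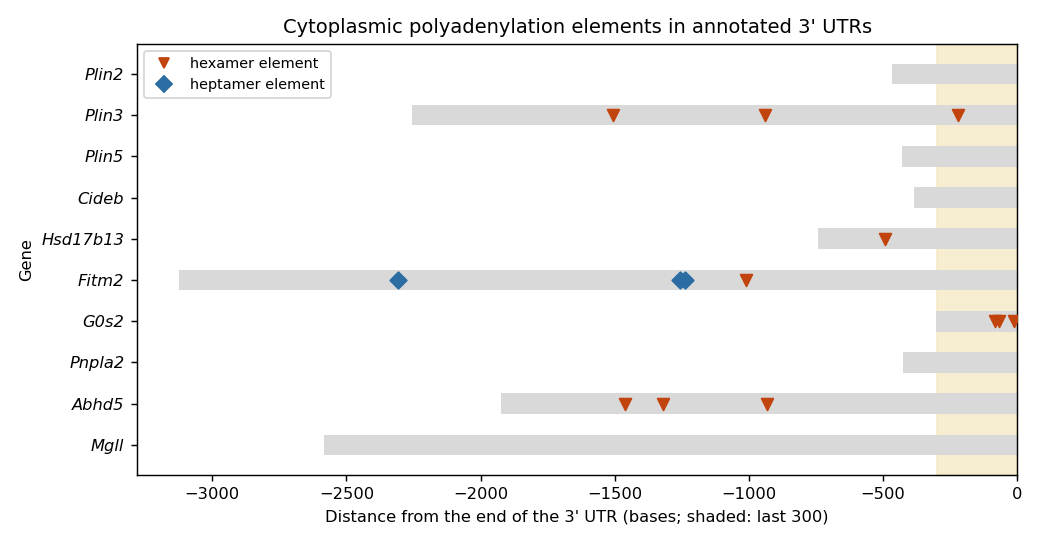
Annotated 3' UTRs of the 10 genes, 1 transcript each, drawn to scale as grey bars. The horizontal axis gives distance in bases from the transcript end. Triangles mark the 6-base element and diamonds the 7-base element. All 3 elements of G0s2 and 1 of the 3 in Plin3 lie in the shaded last 300 bases, and 5 genes have none.

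The first comparison asks whether transcripts of these genes differ between KO and WT livers. None of the 9 passed the authors' test in either table, and the ratios of the KO mean to the WT mean ran from 0.794 to 1.14. Lipolysis enzyme Mgll had the largest difference, with a ratio of the KO mean to the WT mean of 0.802 in the larger and 0.794 in the smaller table, and it had the smallest p of the 9 in both tables. Plin2, the main hepatocyte perilipin, had ratios of 1.03 and 0.996, and Hsd17b13 had 0.984 and 1.01. In the authors' deposited tables the adjusted p was 1.00 (larger table) and 0.999 (smaller table) for each of the 9 genes, with 0 of 9 called, against 0.296% and 0.266% of all tested genes. At an unadjusted p under 0.05, 1 of 9 passed in each of the authors' deposited tables, Mgll both times, against 3.62% and 4.11% of tested genes. Of the deposited log2 fold changes, 6 of 9 were below 0 in each table, against 50.4% and 49.7% of tested genes. Their medians were -0.07 and -0.09 in the authors' deposited tables, and the medians of all tested genes were -0.00 and 0.00. Standard errors of the 9 genes were 0.09 to 0.11 and 0.11 to 0.13 on the deposited log2 scale. At these errors a gene needed a deposited log2 difference of 0.33 to 0.43 (larger table) or 0.42 to 0.50 (smaller table) to pass, so smaller differences were not detectable here. These deposited values are moderated, that is, drawn towards 0. Ratios of means and limma values, given below, are not.

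**Figure D2:**
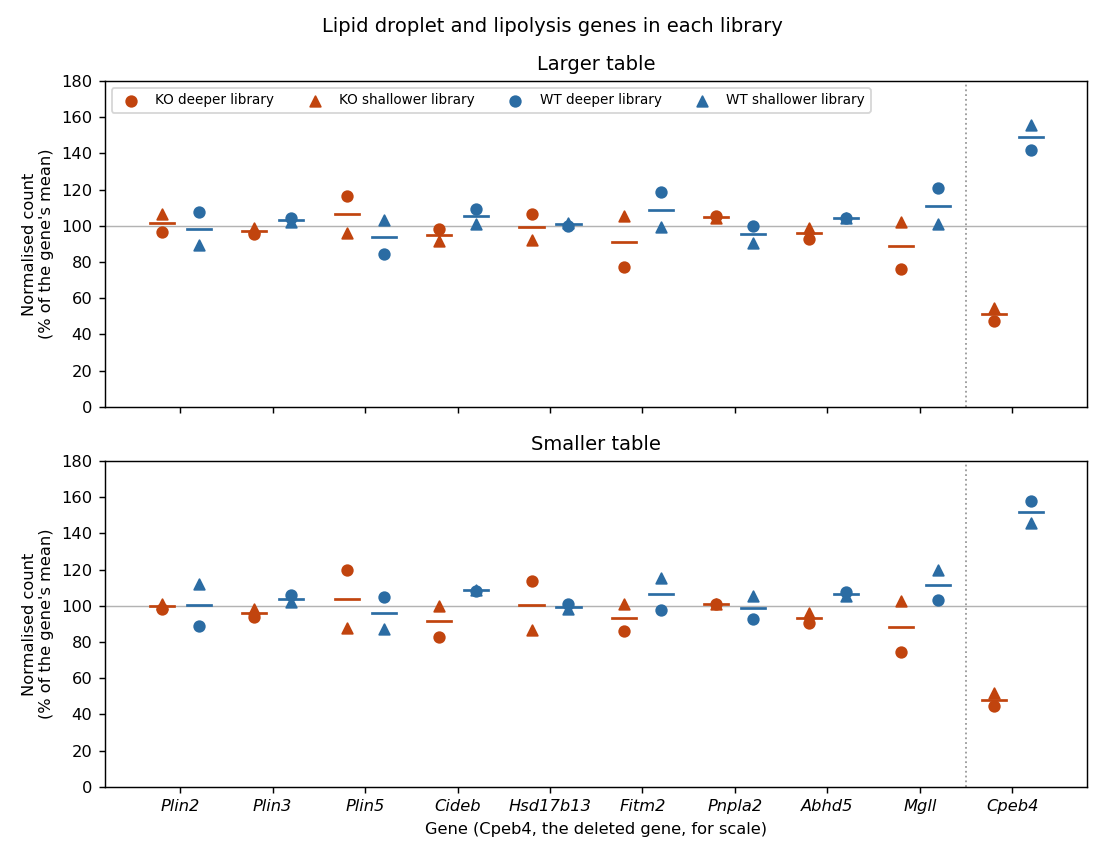
Normalised count of each gene in each library, as a percent of the gene's mean over the 4 libraries of its table, with KO (red) left of WT (blue) and short lines for the genotype means of 2 libraries. The 9 genes lie between 74.4% and 121% of their means, while Cpeb4 is at 44.4% to 54.5% in KO and 142% to 158% in WT libraries.

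The droplet coat genes come first. Plin2 (chromosome 4, 86648386 to 86670060, minus strand) encodes the perilipin that coats hepatocyte droplets and is stabilised by them. In the larger table it had 25248 and 27831 normalised counts in the KO libraries, against 28049 and 23306 in the WT libraries. The smaller table gave 38151 and 39246 in the KO libraries, against 34366 and 43376 in the WT libraries. The KO values lay between the WT values in both tables. The log2 fold change in the authors' deposited tables was 0.04 ± 0.10 (SE) in the larger and -0.01 ± 0.11 in the smaller. Fitted with limma to the recovered counts, the 95% interval of the KO over WT ratio was 0.869 to 1.24 (larger table) and 0.784 to 1.28 (smaller table).

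Plin3 (chromosome 17, 56277476 to 56292873, minus strand) encodes a perilipin that is soluble in the cytosol and coats nascent droplets. It had 2304 and 2379 normalised counts in the KO libraries, against 2515 and 2460 in the WT libraries of the larger table. The smaller table gave 2576 and 2703 in the KO libraries, against 2916 and 2802 in the WT libraries. Both KO libraries were below both WT libraries in each table, by a small step. The deposited log2 fold changes were -0.07 ± 0.09 and -0.09 ± 0.11 in the authors' deposited tables (unadjusted p = 0.412 and 0.396).

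Plin5 (chromosome 17, 56111601 to 56117596, minus strand) encodes the perilipin of oxidative tissues, which links droplets to mitochondria. Its normalised counts in the larger table were 5699 and 4707 in the KO libraries, against 4124 and 5034 in the WT libraries. Its counts in the smaller table were 8468 and 6210 in the KO libraries, against 7441 and 6187 in the WT libraries. The deeper KO library was the highest of its table both times, and the genotypes overlapped. The authors' deposited tables gave log2 fold changes of 0.14 ± 0.11 and 0.08 ± 0.12 (unadjusted p = 0.180 and 0.524). In the larger table the log2 ratio of the means of Plin5 was 0.04 without the deeper KO library and 0.05 without the deeper WT library, against 0.18 with all libraries. In the smaller table it was -0.13 without the deeper KO library and -0.02 without the shallower WT library, against 0.11.

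Cideb (chromosome 14, 55754050 to 55758458, minus strand) had 1337 and 1246 normalised counts in the KO libraries, against 1492 and 1378 in the WT libraries of the larger table. In the smaller table it had 496 and 597 in the KO libraries, against 646 and 651 in the WT libraries. Both KO libraries were below both WT libraries in each table. The log2 fold changes were -0.12 ± 0.10 and -0.18 ± 0.13 in the authors' deposited tables (unadjusted p = 0.218 and 0.174). Its limma estimate in the smaller table was -0.27, with a 95% interval from -0.58 to 0.03. Without the deeper KO library of that table, the log2 ratio of the means of Cideb was -0.12, against -0.25 with all libraries. The value of Cideb is uncertain, since 72.8% of its 31-base words also occur in Nop9, a gene that overlaps it on the opposite strand, and whether reads were counted by strand is not stated in the sources read.

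Next are the droplet enzyme and the budding factor. Hsd17b13 (chromosome 5, 103955440 to 103977410, minus strand) encodes a liver droplet protein, a hydroxysteroid dehydrogenase family member whose loss-of-function variants in humans are known for protection from chronic liver disease. It had 12116 and 10455 normalised counts in the KO libraries, against 11362 and 11584 in the WT libraries of the larger table. The smaller table gave 8984 and 6851 in the KO libraries, against 7956 and 7746 in the WT libraries. In both tables the WT values lay between the KO values. The log2 fold changes in the authors' deposited tables were -0.02 ± 0.09 and 0.01 ± 0.12.

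Fitm2 (chromosome 2, 163466379 to 163472629, minus strand) had 1353 and 1844 normalised counts in the KO libraries, against 2077 and 1738 in the WT libraries of the larger table. It had 791 and 927 in the KO libraries, against 899 and 1060 in the WT libraries of the smaller table. The deeper KO library was lowest in both tables, and the genotypes overlapped. The log2 fold changes were -0.18 ± 0.11 and -0.14 ± 0.13 in the authors' deposited tables (unadjusted p = 0.118 and 0.271). In the larger table the log2 ratio of the means of Fitm2 was -0.05 without the deeper KO library and -0.12 without the deeper WT library, against -0.26 with all libraries. In the smaller table it was -0.08 without the deeper KO library and -0.07 without the shallower WT library, against -0.19.

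The lipolysis genes follow in the order of the reaction. Pnpla2 (chromosome 7, 141455198 to 141460743, plus strand), which encodes ATGL, had 7018 and 6967 normalised counts in the KO libraries, against 6661 and 6041 in the WT libraries of the larger table. Its smaller-table values were 6080 and 6095 in the KO libraries, against 5579 and 6348 in the WT libraries. The KO libraries were both above the WT libraries in the larger table, and lay between them in the smaller. The log2 fold changes were 0.12 ± 0.09 and 0.02 ± 0.11 in the authors' deposited tables (unadjusted p = 0.179 and 0.826).

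Abhd5 (chromosome 9, 122351608 to 122381524, plus strand), the coactivator of ATGL, had 848 and 901 normalised counts in the KO libraries, against 954 and 951 in the WT libraries of the larger table. The smaller table gave 668 and 708 in the KO libraries, against 792 and 777 in the WT libraries. Both KO libraries were below both WT libraries in each table. The log2 fold changes were -0.10 ± 0.10 and -0.14 ± 0.12 in the authors' deposited tables (unadjusted p = 0.348 and 0.254). Of its 31-base words, 16.6% also occur in another gene, mostly A730085K08Rik on the opposite strand.

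Mgll (chromosome 6, 88724412 to 88828360, plus strand) had 12678 and 16971 normalised counts in the KO libraries, against 20178 and 16811 in the WT libraries of the larger table. In the smaller table it had 10160 and 14008 in the KO libraries, against 14095 and 16343 in the WT libraries. The means were 14825 ± 3035 in KO and 18494 ± 2381 in WT libraries of the larger table, and 12084 ± 2721 in KO and 15219 ± 1590 in WT libraries of the smaller (SD, n = 2 each). The deeper KO library was lowest in both tables. The genotypes overlapped in the larger table. Of the smaller-table values, the higher KO one was just under the lower WT value. The log2 fold changes were -0.23 ± 0.11 (unadjusted p = 0.0322) and -0.25 ± 0.12 (unadjusted p = 0.0442) in the authors' deposited tables. Limma gave -0.32 ± 0.15 (95% interval -0.67 to 0.03, adjusted p = 0.697) in the larger and -0.33 ± 0.17 (-0.75 to 0.08, adjusted p = 0.762) in the smaller table. Mgll leaned on its deeper KO library. Without it, the log2 ratio of the means was -0.12 in each table, against -0.32 and -0.33 with all libraries.

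**Figure D3:**
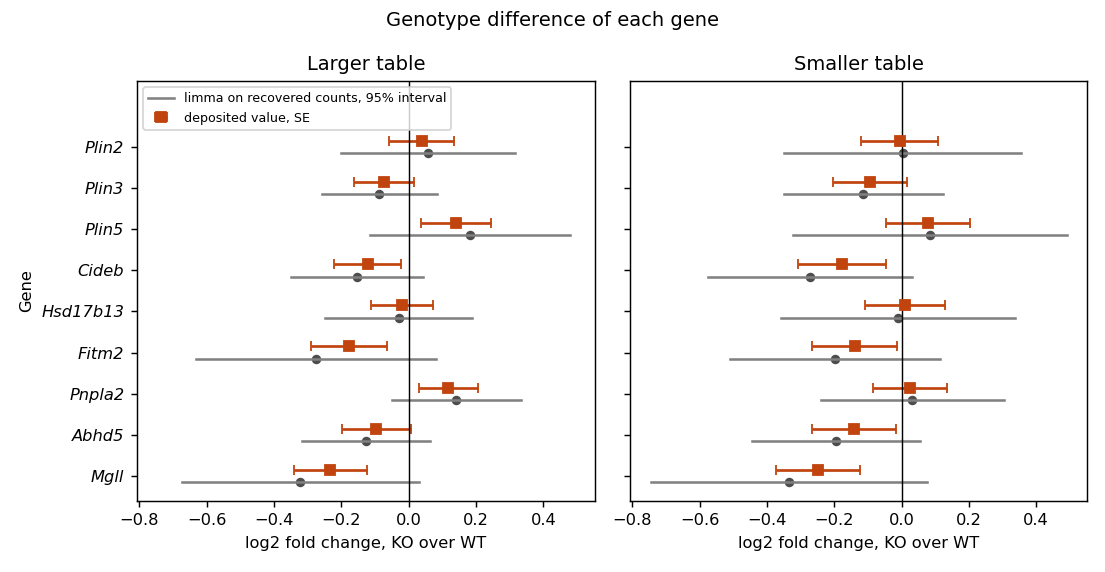
Log2 fold change of KO over WT for the 9 genes in each table, with the deposited moderated value and its SE (red squares) and the limma estimate on recovered counts with its 95% interval (grey). Every limma interval includes 0, and Mgll lies lowest in both panels.

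Counted over the 9 genes, both KO libraries were above both WT libraries for 1 gene (Pnpla2) and below for 3 (Plin3, Cideb and Abhd5) in the larger table, and 5 overlapped. In the smaller table none was above, 4 were below (the same 3 and Mgll) and 5 overlapped. Among all genes with recovered counts, 37.6% in the larger and 38.7% in the smaller table did not overlap in either direction, with KO above for 18.1% and 18.4% and KO below for 19.5% and 20.3%. The count in either direction, 4 of 9 in each table, was near that share. The highest library exceeded the lowest by 1.09 to 1.59 times (larger table) and 1.13 to 1.61 times (smaller table) across the 9 genes, with Plin3 the steadiest and Mgll the most spread in each. Limma on the recovered counts called none of the 9, with adjusted p from 0.697 to 0.963 (larger table) and from 0.741 to 0.997 (smaller table). Over all genes it called 1 of 13894 in the larger table (0.0072%, Cpeb4), with 1043 (7.51%) at an unadjusted p under 0.05. It called 0 of 11298 in the smaller table (0.0%), where 761 (6.74%) had an unadjusted p under 0.05 and the authors' test called 31.

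The second comparison asks whether the genotype difference itself differed between the tables. None of the 9 genes was called different (z test on the deposited log2 fold changes, adjusted p = 1.00 for each, against 0.0172% of 11604 genes called). Only 16 of the 11604 genes had an unadjusted p under 0.05 in this z test, far fewer than that threshold gives by chance. The z test subtracts log2 values already drawn towards 0. It could hardly call a difference, so its result does not show that the genotype differences were equal. The difference, smaller minus larger table, ran from -0.09 for Pnpla2 to 0.04 for Fitm2. All 95% intervals lay within -0.38 and 0.37, on the moderated scale of the deposited values. The test treats the tables as independent, and whether they share animals is not labelled.

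Levels could be compared between the genes only per length, as normalised counts per kilobase of the longest annotated transcript, averaged over the 4 libraries of a table. Plin2 was the most abundant of the 9, at 13829 ± 1197 per kilobase (larger table) and 20543 ± 1963 (smaller table; SD, n = 4 libraries), in the top 1.61% and 1.37% of genes. Hsd17b13 was second in both, at 6662 ± 406 and 4616 ± 513 per kilobase. In the larger table Mgll (4174 ± 770), Pnpla2 (2542 ± 171), Plin5 (2463 ± 331), Cideb (1125 ± 84.3), Plin3 (662 ± 25.4), Fitm2 (442 ± 76.1) and Abhd5 (289 ± 15.8) followed. In the smaller table the order went on with Plin5 (3563 ± 552), Mgll (3421 ± 643), Pnpla2 (2295 ± 123), Plin3 (754 ± 39.7), Cideb (493 ± 59.6), Abhd5 (233 ± 18.6) and Fitm2 (232 ± 27.9). Neighbours in this order whose libraries overlapped were Pnpla2 and Plin5 in the larger table. The smaller table had 3 such pairs, Hsd17b13 and Plin5, Plin5 and Mgll, and Abhd5 and Fitm2. The coactivator Abhd5 was far below its enzyme Pnpla2 per kilobase in each table. Per kilobase of coding length instead, Mgll was second and Hsd17b13 came after it in both tables, at 16726 and 12436 (larger table) and 13706 and 8617 (smaller table). All 9 genes lay above the median tested gene, at 155 and 163 normalised counts per kilobase.

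**Figure D4:**
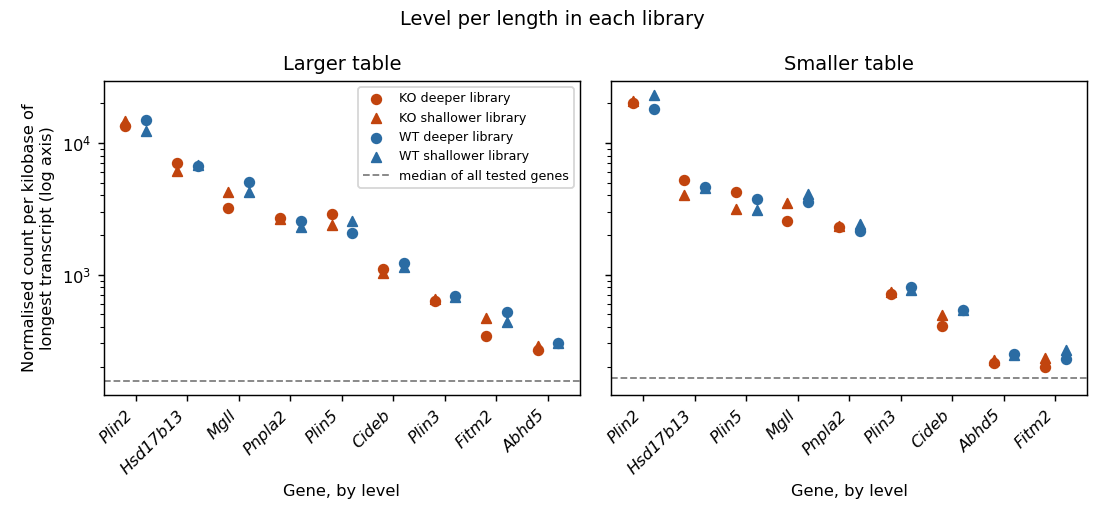
Normalised count per kilobase of the longest transcript in each library (log axis), with genes in order of their mean and KO (red) left of WT (blue). The dashed line is the median tested gene (155 in the larger and 163 in the smaller table). Plin2 stands highest in both panels and every gene lies above the line.

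The mean levels of the 2 tables were set side by side, as values of tables that were normalised separately and without a test. The smaller table's mean over the larger table's was taken relative to the median gene of the 11604 tested in both. The perilipins were the highest of the 9 genes on this ratio, with Plin2 at 1.77, Plin5 at 1.73 and Plin3 at 1.36. Pnpla2 (1.08), Mgll (0.977), Abhd5 (0.961) and Hsd17b13 (0.826) were closer to the median gene. Fitm2 (0.626) and Cideb (0.523) were the lowest, and Cideb was at the 10.8th percentile of genes, with Plin2 at the 88.5th. Before that scaling, the libraries of the tables overlapped for Pnpla2 and Mgll and not for the other 7 genes. Plin2, for example, had 34366 to 43376 normalised counts in the smaller table and 23306 to 28049 in the larger. The median gene itself was at 0.838 before scaling. The share of all genes without such overlap was not computed, so the count of 7 is not a result about these genes. Preparation, feeding state and sequencing run cannot be told apart in this ratio.

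**Figure D5:**
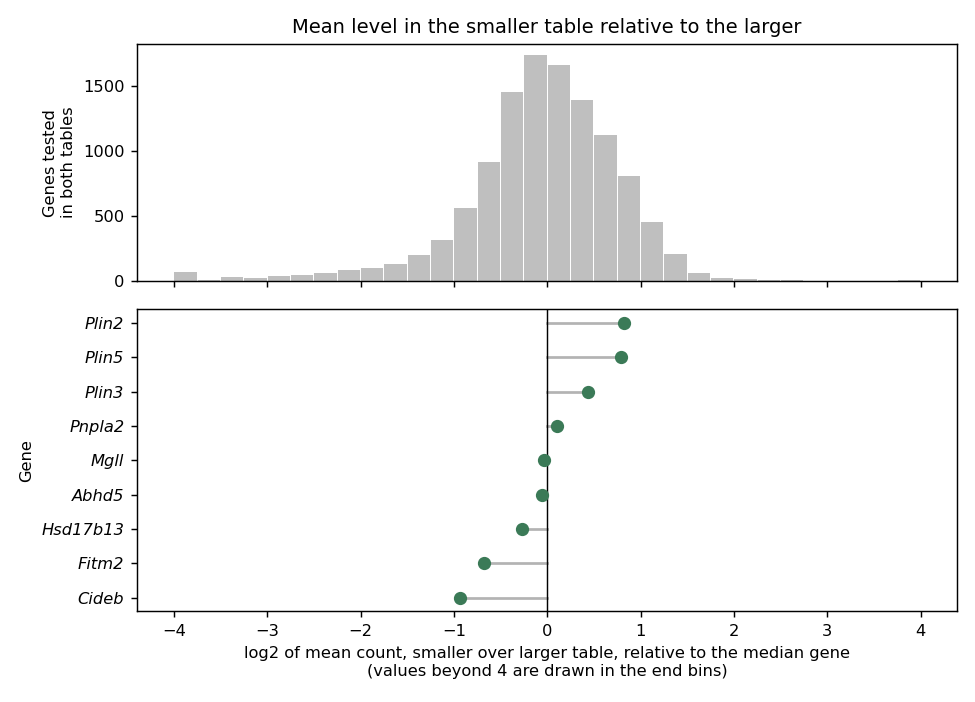
Mean count in the smaller over the larger table, on a log2 scale relative to the median gene, for all 11604 genes tested in both (histogram) and for the 9 genes (points). The 3 perilipins lie right of 0 and Fitm2 and Cideb lie farthest left.

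Other genes of fat storage were counted from lists of related genes. Of other lipid droplet proteins, 22 (larger table) and 20 (smaller table) were tested, 0 were called in either authors' deposited table, and 12 and 11 were below 0, with medians of -0.01 in both. The lowest p among them belonged to Fitm1, the muscle-enriched relative of Fitm2, at -0.33 ± 0.11 (adjusted p = 0.267) in the authors' deposited larger table, with 660 and 641 normalised counts in the KO libraries against 927 and 835 in the WT libraries. In the authors' deposited smaller table Fitm1 was at -0.36 ± 0.13 (adjusted p = 0.412). Its normalised counts there were 951 and 888 in the KO libraries, against 1149 and 1439 in the WT libraries. The lowest p of the list in that table belonged to Cidec, a droplet fusion protein related to Cideb, at -0.48 ± 0.14 (adjusted p = 0.138). Cidec had 955 and 1310 normalised counts in the KO libraries, against 1429 and 2500 in the WT libraries of the smaller table. In the authors' deposited larger table Cidec was at -0.12 ± 0.10 (adjusted p = 1.00), with 764 and 1095 normalised counts in the KO libraries, against 1876 and 1020 in the WT libraries, and the genotypes overlapped. The high WT library of Cidec in each table is the one with high Marco, described at the end. The most abundant of the list by mean count was Mettl7b, at -0.01 and -0.02 in the authors' deposited tables.

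Of other lipases and lipolysis factors, 20 and 19 were tested, 0 were called, and 14 were below 0 in each of the authors' deposited tables, with medians of -0.09 and -0.07. Pnpla7, a lysophospholipase related to Pnpla2, had the lowest p of the list in the larger table, at -0.19 ± 0.09 (adjusted p = 1.00) in the authors' deposited table. Its normalised counts there were 5393 and 5310 in the KO libraries, against 6626 and 5897 in the WT libraries. In the authors' deposited smaller table Pnpla7 was at -0.26 ± 0.11 (adjusted p = 0.803). The KO libraries there had 5226 and 4962 normalised counts, against 6025 and 6682 in the WT libraries. Fabp1, the liver fatty acid binding protein and the most abundant of the list by mean count, was at -0.12 ± 0.12 and -0.33 ± 0.13 (adjusted p = 1.00 and 0.674) in the authors' deposited tables.

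Of 14 fat storage regulators, all tested in both tables, 11 were below 0 in each, 1 was called higher in each, and 1 was called lower in the larger. Ppargc1a, the coactivator PGC-1α of fasting metabolism, rose in KO in both of the authors' deposited tables (0.51 ± 0.12, adjusted p = 0.00648, and 0.67 ± 0.13, adjusted p = 0.000667). Its normalised counts were 786 and 640 in the KO libraries, against 384 and 454 in the WT libraries of the larger table, and 646 and 540 in the KO libraries, against 310.5 and 275 in the WT libraries of the smaller. Srebf1, which encodes the lipogenic factor SREBP-1, fell in KO in the authors' deposited larger table (-0.41 ± 0.11, adjusted p = 0.0449), with 1429 and 1806 normalised counts in the KO libraries against 2480 and 2240 in the WT libraries. That call was lost with no filter on the mean (adjusted p = 0.0748). In the authors' deposited smaller table Srebf1 was at -0.32 ± 0.13 and was not called (adjusted p = 0.726). Its normalised counts there were 598 and 813 in the KO libraries, against 960 and 982 in the WT libraries. Limma on the recovered counts of all libraries called neither Ppargc1a nor Srebf1 in either table. Srebf1 shares exon sequence positions with 2 other annotated genes. Cebpa, a hepatocyte transcription factor and the most abundant of the list by mean count, was at -0.14 ± 0.09 and -0.18 ± 0.11 in both of the authors' deposited tables, without passing.

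Cell type markers were read beside these results, since in bulk RNA fewer cells of a type and less RNA per cell cannot be told apart. All 10 hepatocyte markers were tested in both tables, and 1 of them, Tat, was called higher in KO in each. Each of the authors' deposited tables had 5 above 0 and 5 below, and 2 (larger table) and 3 (smaller table), Tat included, had an unadjusted p under 0.05. Alb, the most abundant by mean count, was at -0.11 and -0.14 in the authors' deposited tables (unadjusted p = 0.225 and 0.204). Ttr did not pass the adjusted test in the authors' deposited tables, at -0.19 and -0.24 (unadjusted p = 0.0150 and 0.0257). Nor did Cps1, at 0.21 and 0.43 in the authors' deposited tables (unadjusted p = 0.0790 and 0.000805). The part of these markers in the differences was not tested. Adipocyte markers were mixed. Lipe had mean counts of 1009 and 760, Fabp4 of 215 and 615, and Plin4 of 244 and 132 (larger and smaller table). Adipoq, Lep and Plin1 were low. Adipoq had 14 and 4 reads in the KO libraries, against 5 and 12 in the WT libraries of the larger table, and 23 and 7 in the KO libraries, against 17 and 2 in the WT libraries of the smaller. Lep had 0 reads in both KO libraries, against 0 and 1 in the WT libraries of the larger table, and Plin1 had a mean of 6.17 and 1.64 counts. Of the 10 adipocyte markers, 5 and 4 were tested and none was called. Over the markers with recovered counts, the summed normalised counts were 1541 and 1454 in the KO libraries, against 1570 and 1620 in the WT libraries of the larger table, and 1600 and 1478 in the KO libraries, against 1710 and 1567 in the WT libraries of the smaller. Lipe and Fabp4 made up most of these sums, and Lipe, Plin1, Plin4, Cidea and Hilpda each stand on more than 1 list.

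Of 10 Kupffer cell markers, 9 (larger table) and 10 (smaller table) were below 0, with none called. Their summed normalised counts were 7021 and 6463 in the KO libraries, against 8383 and 6572 in the WT libraries of the larger table, and 4969 and 4156 in the KO libraries, against 4706 and 5876 in the WT libraries of the smaller. No stellate cell, cholangiocyte or endothelial marker was called in either table. The sums of stellate markers were 2757 and 2737 in the KO libraries, against 3033 and 3115 in the WT libraries of the larger table. In the smaller table they were 1595 and 1501 in the KO libraries, against 1772 and 1693 in the WT libraries. Dcn made up most of each stellate sum. Of the tested stellate markers, 5 were below 0 and 3 above in the larger table, and 5 below and 1 above in the smaller. The KO over WT ratio of the summed markers was 1.09 and 1.04 for cholangiocytes and 0.968 and 1.00 for endothelial cells.

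Marco reads were concentrated in 1 WT library of each table. In the deeper WT library of the larger table, Marco, a macrophage receptor picked after its values were seen, had 549 normalised counts, against 79.4 in the other WT library and 108 and 83.0 in the KO libraries. In the shallower WT library of the smaller table it had 397, against 66.7 in the other WT library and 73.6 and 63.2 in the KO libraries. These WT libraries were the highest for 6 of the 9 lipid droplet and lipolysis genes in the larger table (23.9% of all genes were highest there) and for 5 of 9 in the smaller (24.3%). The deeper KO library was the lowest for 4 of the 9 genes in the larger table (31.4% of all genes) and for 5 in the smaller (27.2%). Without the WT library in question, the log2 ratio of the means of Mgll was -0.18 in the larger and -0.22 in the smaller table. The part of these libraries in the differences was not tested.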

How the data were processed

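Per the submitters' processing notes, the tools were STAR 2.3.0e and DESeq2 1.6.3 and the build was mm10. The annotation, the counter and its strand setting are not stated in the sources read. For each gene the authors deposited a mean signal (counts divided by size factors, averaged over libraries, per the file headers), the log2 fold change and its error, the Wald score, and both a raw and an adjusted p-value. Adjusted p-values are missing for 9454 and 9540 genes of low mean, and those genes were left out of the counts of tested and called genes. Markers among them still entered the read values and the summed marker counts. Calls use the authors' adjusted p under 0.05. Identifiers matched a gene symbol for 23484 of 23634 and 21080 of 21201 genes.

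Whole counts per library were recovered from each deposited mean, which has 15 significant digits. Whole-number combinations of the 4 single-read steps were searched, and the one kept gave the deposited log2 fold change within 5e-07 under the authors' moderated fit. This resolved 13894 of 14180 and 11298 of 11661 tested genes; the most abundant genes stayed unresolved, and the resolved genes hold 47.7% and 43.3% of the summed mean. They give 15916812 to 22276107 reads in KO and 12761703 to 22393831 in WT libraries of the larger table, and 13032640 to 26837558 in KO and 13526295 to 13781539 in WT libraries of the smaller. On simulated data, 193 of 200 and 194 of 200 genes were resolved, with 0 wrong. That simulation stopped at 2000 expected combinations per gene, while the genes of the lists were searched up to 30000. Plin2 was resolved among 3150 (larger table) and 11070 (smaller table) combinations, so the simulation did not cover it. A limma 3.58.1 (voom) fit of the recovered counts in R 4.3.3, chosen after seeing the data, gives unmoderated estimates. For simulated log2 changes of 0.5 it recovered 29% in the larger and 35% in the smaller table, and for changes of 1 it recovered 85% and 99%. The simulation gave every gene the same dispersion, so these shares do not give the power of limma in the real libraries. In the real smaller table limma did not call Cpeb4 itself, at -1.68 (limma adjusted p = 0.0534). The quasi-likelihood count test that the design held in reserve for deposited counts was not run, since the tables hold none. With 2 libraries a side, a permutation test could not reach 0.05. P-values measure the spread between libraries, which may be technical.

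The genes and the lists (other lipid droplet proteins, other lipases and lipolysis factors, fat storage regulators, and markers of 6 cell types) were chosen with earlier results of these data known. Of the lists of related genes, those named are the called ones, and per list and table the lowest p and the highest mean. The marker genes named were picked after their values were seen. Apart from Dcn, the members of 3 marker lists (stellate, cholangiocyte and endothelial) are not named. Python 3.11.15 with numpy 2.4.6, pandas 2.3.3 and scipy 1.17.1 was used.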

Additional observations from a re-analysis of the deposited data

How the results depend on the processing

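No paired analysis was possible because the recovered libraries carry no replicate number. In the deposited tables, the count of called genes among the 9 stayed at 0 with no mean filter, with a mean of at least 100, at an adjusted p under 0.1 and after centring, and in all 5 limma settings, whose lowest adjusted p was 0.109 and 0.149 in turn. Tightening the tolerance on the mean 10 times left counts for 4 and 3 of the 9 genes. That tolerance is narrower than the rounding of the deposited means and can drop right combinations. The loss therefore does not show whether the counts are right. Signs near 0 were not stable. Limma on all libraries reversed Plin2 (0.0030) and Hsd17b13 (-0.012) in the smaller table, where the deposited values were -0.0051 and 0.0098. Leaving out 1 library in limma, values of the other sign were -0.080 and -0.015 for Plin2 and 0.078 for Hsd17b13 in the larger table. Those of the smaller table were 0.023 and 0.17 for Plin2, -0.13 and -0.052 for Plin5, -0.060 for Pnpla2, and -0.20 and -0.033 for Hsd17b13. The cause was not tested. The sign of the log2 ratio of means held without each library in 12 of 18 pairs of gene and table, 7 in the larger and 5 in the smaller. It also moved by over 1.5 times in the larger table for Pnpla2 (0.07 to 0.21, lowest without the shallower WT library), Cideb (-0.21 to -0.09, nearest 0 without the deeper WT library) and Abhd5 (-0.17 to -0.08, nearest 0 without the deeper KO library). For Mgll that ratio ran from -0.54 to -0.12 in the larger and from -0.58 to -0.12 in the smaller table. Limma's count of calls over all genes moved with the library left out and ran from 1 to 76 (larger table) and from 0 to 40 (smaller table). Per kilobase of coding length, Mgll passed Hsd17b13 in both tables and Fitm2 had rank 6 of 9 in the larger, against rank 8 on the longest transcript. Only 2 libraries a side limit what can be detected.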
